A study of Mus musculus with 8 samples.

Results

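The 30 genes described here encode subunits of the GABA-A, GABA-B and glycine receptors, together with proteins that anchor, assemble or accompany these receptors. They were taken from the 55416 genes of the count table by their names, and every name was found once. Other subunits of these receptors were not analysed here. The list holds 15 GABA-A receptor subunits, 4 GABA-A receptor anchoring or assembly proteins, 5 glycine receptor subunits, 2 GABA-B receptor subunits and 4 KCTD proteins, which are auxiliary subunits of the GABA-B receptor.

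GABA-A and glycine receptors are chloride channels built from several subunits, and they carry fast inhibition in the brain and spinal cord. Which alpha, beta and further subunits a GABA-A receptor contains sets where it sits on the neuron, how strongly it responds to GABA and which drugs bind it. GABA-B receptors are G protein-coupled receptors made of Gabbr1 and Gabbr2 that act more slowly, through potassium and calcium channels.

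Messenger RNA was sequenced from the cerebral cortex of mice heterozygous for the Ago2 substitution L192P (AGO2_L192P/+, called L192P, 4 samples) and of wild-type mice (WT, 4 samples). Argonaute 2, the product of Ago2, is the protein that carries a miRNA to its target mRNAs. The knock-in allele was made with CRISPR/Cas in C57BL/6JUke embryos, passed through founders bred to wild-type mice, and is a germline change that is not limited to the brain. Age and sex are not stated, and the labels number the replicates without naming animals, so that p-values measure the spread between these 8 samples.

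Libraries held between 20396357 and 43575900 counts, and normalized counts below are counts divided by a size factor per library. Replicate 1 of both genotypes stood apart, with Xist at 0.934 and 1.82 normalized counts against 5185 to 7257 in the other 6 libraries, and with 3547 and 3534 counts on chromosome Y genes against 186 to 573. The RNA of Ago2 itself averaged 2291 ± 75.1 normalized counts over the L192P libraries and 2246 ± 130 over the WT libraries (SD, n = 4), a log2 fold change of 0.03 ± 0.06. Here and below, the error after a log2 fold change is the standard error of the fit. All 11 listed markers of cortical excitatory neurons were present, and their summed level was between 88955 and 94463 normalized counts in L192P and between 89021 and 108968 in WT. Genes listed as markers of the hypothalamus were also present and summed to 323 to 1379 normalized counts in L192P and to 184 to 316 in WT. Their values are given below beside those of Gabrq, Gabre, Glra3, Hap1 and Gad2.

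Gabrq, the theta subunit of the GABA-A receptor, and Glra3, an alpha subunit of the glycine receptor, were higher in L192P cortex, 3.73-fold and 1.55-fold. No other of the 30 genes passed the test, and none was lower. Of the 30 genes, 26 had a mean of at least 10 normalized counts and received an adjusted p. The call rule was a Benjamini-Hochberg adjusted p under 0.05 in a DESeq2 fit over all genes, which called 1.36% of all 18627 genes tested, 253 in number. Of the 30 receptor genes, 5 had an unadjusted p under 0.05 (Gabre, Gabrg1, Gabrq, Glra2 and Glra3, each with the higher mean in L192P). Over all genes this was 1869 of the 32664 tested with independent filtering off. Among the 26 receptor genes with an adjusted p, 2 were called, 15 had a log2 fold change above 0 and 11 below 0. Their median log2 fold change was 0.056, against 0.002 over all tested genes. The L192P and WT libraries did not overlap for 2 of the 26 genes, again Gabrq and Glra3, against 5.97% of all tested genes.

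**Figure D1:**
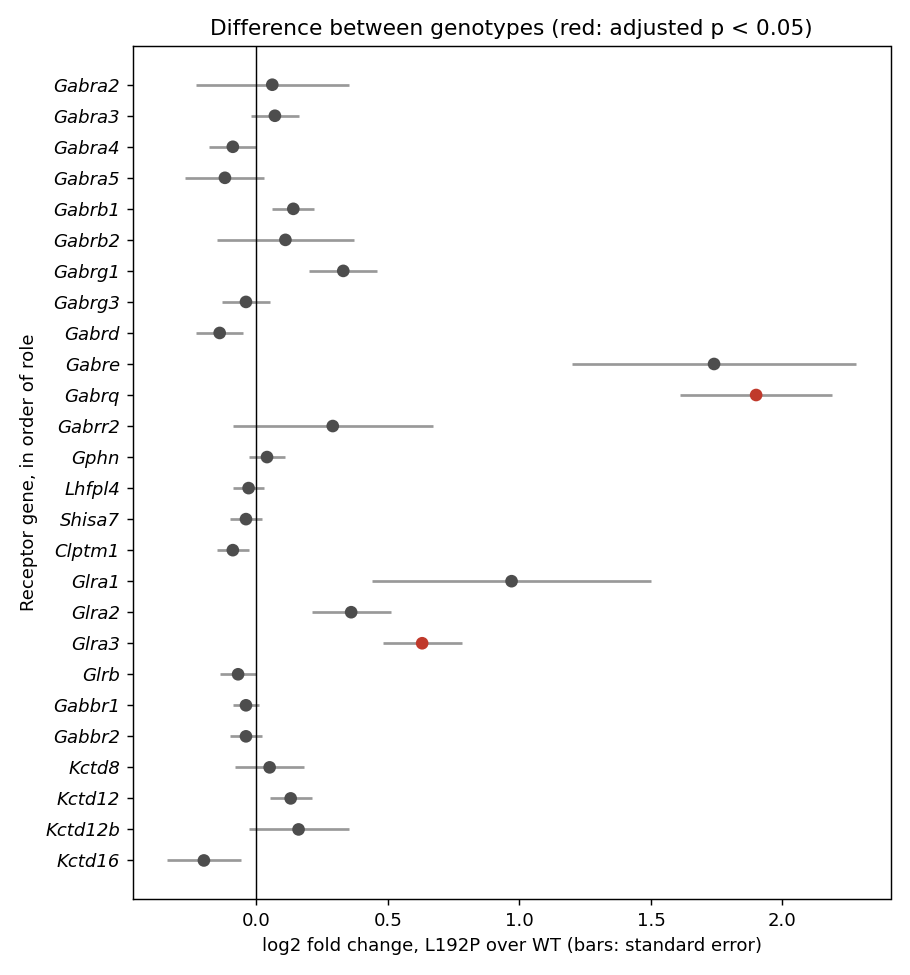
Log2 fold change of L192P over WT (horizontal axis) for the 26 receptor genes with an adjusted p, in order of role from GABA-A alpha subunits to GABA-B auxiliary subunits, with bars for the standard error. Gabrq at 1.90 and Glra3 at 0.63 are the genes drawn in red, which passed the test, while Gabre at 1.74 and Glra1 at 0.97 have wide bars and did not.

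The theta and epsilon subunits, encoded by Gabrq and Gabre, are best known from receptors of hypothalamic, noradrenergic and serotonergic neurons, and they were among the least abundant receptor genes in these cortex libraries. Gabrq (ENSMUSG00000031344, GRCm39 chromosome X, 71868784 to 71886208, plus strand) had 110.2, 133, 107 and 132 normalized counts in L192P replicates 1 to 4. In WT replicates 1 to 4 it had 58.3, 19.2, 28.2 and 24.6. Every L192P library was above every WT library, and WT replicate 1 was the WT library closest to them. In bulk tissue, more cells with Gabrq RNA and more Gabrq RNA per cell cannot be told apart, and the same holds for every gene below.

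The means of Gabrq were 121 ± 13.8 normalized counts in L192P and 32.6 ± 17.5 in WT (SD, n = 4), a log2 fold change of 1.90 ± 0.29 (DESeq2 adjusted p = 4.71e-08). By exact permutation of the genotypes over the 8 libraries, two-sided, p was 0.0286 for Gabrq, the smallest that 4 against 4 libraries allow. The permutation did not keep same-numbered libraries together. It gives this p to every gene whose groups do not overlap, 5.97% of those tested. The call held in all 16 alternatives that gave an adjusted p, of which edgeR gave the highest, 0.0178. With the replicate number as a block, the log2 fold change was 1.99 and independent filtering left Gabrq without an adjusted p, and the same fit without that filter gave a DESeq2 adjusted p of 1.78e-07. Without both replicate 1 libraries the log2 fold change was 2.40, with a DESeq2 adjusted p of 2.26e-13.

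Gabre (ENSMUSG00000031340, chromosome X, 71299605 to 71318409, minus strand) had 18.7, 39.8, 31.1 and 59.9 normalized counts in L192P replicates 1 to 4. The WT replicates 1 to 4 had 15.5, 2.82, 22.8 and 4.68. The groups overlapped, since WT replicate 3 was above L192P replicate 1, and 3 of the 4 L192P libraries were above all WT libraries.

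The means of Gabre were 37.4 ± 17.3 in L192P and 11.4 ± 9.41 in WT (SD, n = 4), a log2 fold change of 1.74 ± 0.54, an estimate close to that of Gabrq but with a wider error. The DESeq2 adjusted p of 0.0802 missed the threshold, and only 3 of 15 alternatives called Gabre, those without L192P replicate 1 (0.0241), WT replicate 1 (0.0326) or WT replicate 3 (0.0105). The highest DESeq2 adjusted p among the alternatives was 0.417, without L192P replicate 4.

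Both genes lie on the X chromosome on either side of Gabra3, the alpha3 subunit gene (71476275 to 71700723, minus strand), with gaps of 158 kb to Gabre and 168 kb to Gabrq. Gabra3 had 3657, 3185, 2725 and 3588 normalized counts in L192P replicates 1 to 4. In the WT replicates it had 3371, 3046, 2918 and 3243. The groups overlapped over most of their range, and Gabra3 had a log2 fold change of 0.07 ± 0.09 (DESeq2 adjusted p = 0.937). Of the 3 neighbours, only Gabrq at one end therefore passed the test, and Gabra3 in the middle was the abundant one.

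The stretches of 250 bases upstream of the annotated starts are printed for Gabrq, Gabre and Glra3, that is for the called genes and for the neighbour of Gabrq with a similar fold. They were taken from RefSeq promoters on GRCm38.p6, which is not the build used for the counts, and are written 5′ to 3′ on the strand of the gene. Capitals mark the GC box, searched as GGGCGG and its reverse complement CCGCCC. Gabrq stands at chrX:72824928-72825177 on the plus strand, Gabre at chrX:72274722-72274971 on the minus strand and Glra3 at chr8:55940168-55940417 on the plus strand.
Gabrq: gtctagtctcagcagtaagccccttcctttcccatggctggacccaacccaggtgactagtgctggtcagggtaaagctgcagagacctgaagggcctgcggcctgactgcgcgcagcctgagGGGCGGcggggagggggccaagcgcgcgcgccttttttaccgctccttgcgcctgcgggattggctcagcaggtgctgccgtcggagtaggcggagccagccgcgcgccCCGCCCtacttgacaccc
Gabre: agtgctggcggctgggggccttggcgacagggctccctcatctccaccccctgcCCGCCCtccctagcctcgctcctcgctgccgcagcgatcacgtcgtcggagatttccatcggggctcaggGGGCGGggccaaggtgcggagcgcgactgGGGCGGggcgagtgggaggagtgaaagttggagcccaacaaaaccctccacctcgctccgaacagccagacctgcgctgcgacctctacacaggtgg
Glra3: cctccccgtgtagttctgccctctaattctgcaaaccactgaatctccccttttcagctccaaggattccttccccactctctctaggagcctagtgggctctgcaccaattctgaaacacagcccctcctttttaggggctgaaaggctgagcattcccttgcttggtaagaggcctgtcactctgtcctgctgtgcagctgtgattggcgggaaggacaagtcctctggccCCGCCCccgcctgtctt

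The Gabrq stretch held 2 GC boxes, that of Gabre 3 and that of Glra3 1. Their GC content was 67.2%, 68.8% and 56.0%, against a median of 52.4% over 32851 RefSeq promoters. None of the 3 held the cyclic AMP response element TGACGTCA or the TATA box TATAAA on either strand. Of the receptor genes, 26 matched the RefSeq table, and Gabrd, Glra1, Kctd12b and Kctd16 did not. The 26 matched genes had 30 promoters. A GC box was found in 17 of the 30, including those of the abundant Gabbr1, Gabbr2 and Glrb, and in 32.7% of all promoters. The response element was found in 1 of the 30, that of Kctd8, against 1.55% of all promoters. The TATA box was found in 4 of the 30, from Gabra3, Gabrb2 and Glra2, against 12.4%.

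Among the glycine receptor genes, Glra3 rose, Glra2 was called only in some of the fits and Glrb did not pass. Glra3 encodes the alpha3 subunit, known from inhibitory synapses of the spinal dorsal horn and also expressed in the forebrain. Glra3 (ENSMUSG00000038257, GRCm39 chromosome 8, 56393446 to 56583293, plus strand) had 321, 338, 407 and 413 normalized counts in L192P replicates 1 to 4. In WT replicates 1 to 4 it had 315, 216, 213 and 209.6. All L192P libraries were above all WT libraries, but WT replicate 1 came within a few counts of L192P replicate 1, whereas the other WT libraries lay close together well below.

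The Glra3 means were 370 ± 47.0 normalized counts in L192P and 238 ± 51.2 in WT (SD, n = 4), a log2 fold change of 0.63 ± 0.15 (DESeq2 adjusted p = 0.00507). The exact two-sided permutation test, again without pairing, gave p = 0.0286, as for every gene whose groups do not overlap. This call was less stable than that of Gabrq. It held in 10 of 17 alternatives and was lost with edgeR (adjusted p = 0.101) and limma-voom (0.0961). With DESeq2 it was also lost without L192P replicate 3 or 4 (0.0513 and 0.0518) or WT replicate 2, 3 or 4 (0.0527, 0.0519 and 0.0603). Without both replicate 1 libraries the log2 fold change was 0.86 and the DESeq2 adjusted p 4.83e-07.

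Glra2, the alpha2 subunit that dominates in the immature brain, had 586, 457, 399 and 538 normalized counts in L192P replicates 1 to 4. The WT replicates had 496, 311, 370.4 and 369.9. In each same-numbered pair the L192P library was the higher one, although the groups overlapped. Glra2 had a log2 fold change of 0.36 ± 0.15 (DESeq2 adjusted p = 0.335). The fit with the replicate number as a block, which called 4.25% of 12536 tested genes, gave 0.0483 for Glra2 with the same fold change, and 0.12 without independent filtering. DESeq2 also called Glra2 without WT replicate 1 (adjusted p 0.0132, log2 fold change 0.50), and without both replicate 1 libraries it gave 0.0672. In that block fit 2 of the 22 receptor genes with an adjusted p were called, Glra2 and Glra3 (0.00347).

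Glrb, the beta subunit that ties glycine receptors to gephyrin, was far more abundant per length than any of the alpha subunits. It had 6614, 5965, 5638 and 6551 normalized counts in L192P replicates 1 to 4 and 6577, 6378, 6170.1 and 6832 in the WT replicates. The groups overlapped, with a log2 fold change of -0.07 ± 0.07 (DESeq2 adjusted p = 0.878). The alpha subunit genes Glra1 and Glra4 were near the limit of detection. Glra1 had 18.7, 9.1, 43.8 and 9.58 normalized counts in L192P and between 9.04 and 11.7 in WT, with a log2 fold change of 0.97 ± 0.53 (DESeq2 adjusted p = 0.578). Without L192P replicate 3, the highest library, that of Glra1 was 0.29. Glra4 had at most 7.47 normalized counts in any library and received no adjusted p.

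**Figure D2:**
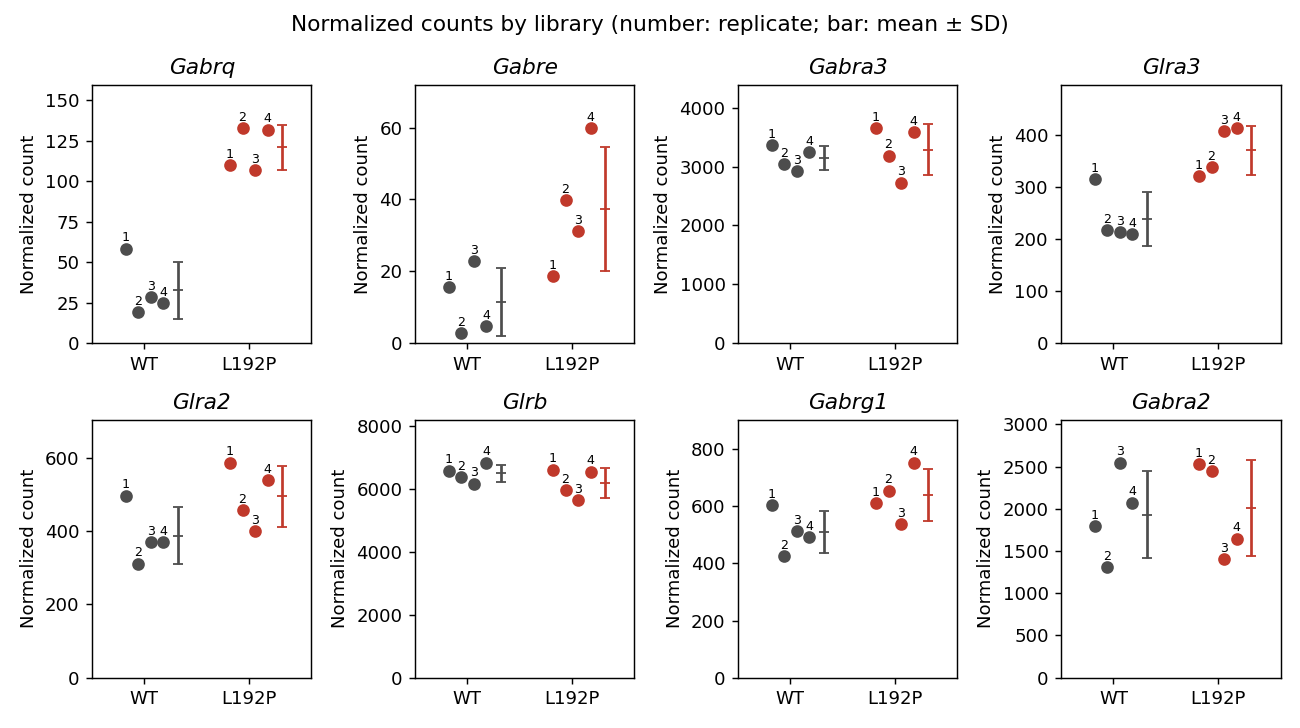
Normalized counts (vertical axes, each from 0) of 8 receptor genes in the 4 WT libraries (grey) and the 4 L192P libraries (red), with replicate numbers at the points and bars for the mean ± SD. Gabrq, at 107 to 133 in L192P and 19.2 to 58.3 in WT, and Glra3, at 321 to 413 and 209.6 to 315, show no overlap between the groups, while Gabre, Gabra3, Glra2, Glrb, Gabrg1 and Gabra2 do.

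None of the alpha subunits of the GABA-A receptor passed the test. Of 5 listed, Gabra2, Gabra3, Gabra4 and Gabra5 had adjusted p-values, and their log2 fold changes ran from -0.12 for Gabra5 to 0.07 for Gabra3. Gabra2, a subunit enriched at inhibitory synapses on the axon initial segment, varied most of the abundant receptor genes. Its 4 L192P libraries had 2531, 2448, 1406 and 1646 normalized counts and its WT libraries 1794, 1311, 2546 and 2074, and both groups covered almost the same range. Its coefficient of variation over the 8 libraries was 25.6%, against 9.95% for Gabra3 and 9.80% for Gabra4. Gabra2 had a log2 fold change of 0.06 ± 0.29 (DESeq2 adjusted p = 0.991), so that its spread between libraries leaves room for a difference of moderate size in either direction.

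Gabra4 and Gabra5, subunits of receptors that lie largely outside synapses, had means of 2988 ± 373 and 1282 ± 238 normalized counts in L192P and 3192 ± 217 and 1391 ± 285 in WT (SD, n = 4). Gabra4 overlaps Gabrb1 head to head on chromosome 5, on the opposite strand, and whether reads were counted by strand is not given, so reads from the shared stretch may have gone to either gene. Opposite-strand exons, mostly of predicted genes, also overlap many other members, but none overlap Gabrq, Gabre, Glra3, Glra2 or Gabrg1. Gabra6, the alpha6 subunit of cerebellar granule cells, had at most 10 normalized counts in any library and was listed at 0 in WT replicates 3 and 4.

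Neither of the beta subunits passed the test. Gabrb2 had 2635, 1425, 1871 and 1921 normalized counts in L192P replicates 1 to 4 and 2183, 1294, 1583 and 2229 in the WT replicates, with a log2 fold change of 0.11 ± 0.26. Replicate 2 was the lowest library of Gabrb2 in both genotypes. Gabrb1 was steadier, at 2707 ± 141 in L192P and 2453 ± 224 in WT (SD, n = 4), with a log2 fold change of 0.14 ± 0.08 (DESeq2 adjusted p = 0.575).

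Of the gamma subunits, Gabrg1 had 610.1, 655, 537 and 753 normalized counts in L192P replicates 1 to 4 and 605, 425, 514 and 492 in the WT replicates. The groups overlapped only through WT replicate 1, since the other WT libraries were below every L192P library. Gabrg1 had a log2 fold change of 0.33 ± 0.13 (DESeq2 adjusted p = 0.231). Without both replicate 1 libraries, a fit that called 3.46% of 14437 tested genes, the log2 fold change of Gabrg1 was 0.45 with a DESeq2 adjusted p of 0.0233, and without WT replicate 1 alone it was 0.0216. In the fit without both libraries 3 of the 23 receptor genes with an adjusted p were called, Gabrg1, Gabrq and Glra3. Gabrg3 had 649 ± 50.3 in L192P and 669 ± 54.5 in WT (SD, n = 4), with a log2 fold change of -0.04.

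The delta subunit, which forms receptors outside synapses that respond to low GABA, was the most abundant of the delta, epsilon, theta and pi subunits. Gabrd had 1608, 1724, 1587 and 1735 normalized counts in L192P replicates 1 to 4 and 1574, 1991, 1702 and 2080.3 in the WT replicates. The L192P libraries lay within the WT range, and the log2 fold change was -0.14 ± 0.09 (DESeq2 adjusted p = 0.693). Gabrp, the pi subunit found mainly outside the brain, had at most 1.15 normalized counts in any library and was listed at 0 in all 4 WT libraries.

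The rho subunits form GABA-gated channels known from the retina. Gabrr2 had 38.3, 26.2, 39.2 and 12 normalized counts in L192P replicates 1 to 4 and 26.4, 18.1, 29.3 and 22.2 in the WT replicates. The L192P libraries reached both above and below the WT libraries, and the log2 fold change of 0.29 had a standard error of 0.38. Its neighbour Gabrr1, 29.8 kb away on chromosome 4, had at most 4.55 normalized counts in any library.

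**Figure D3:**
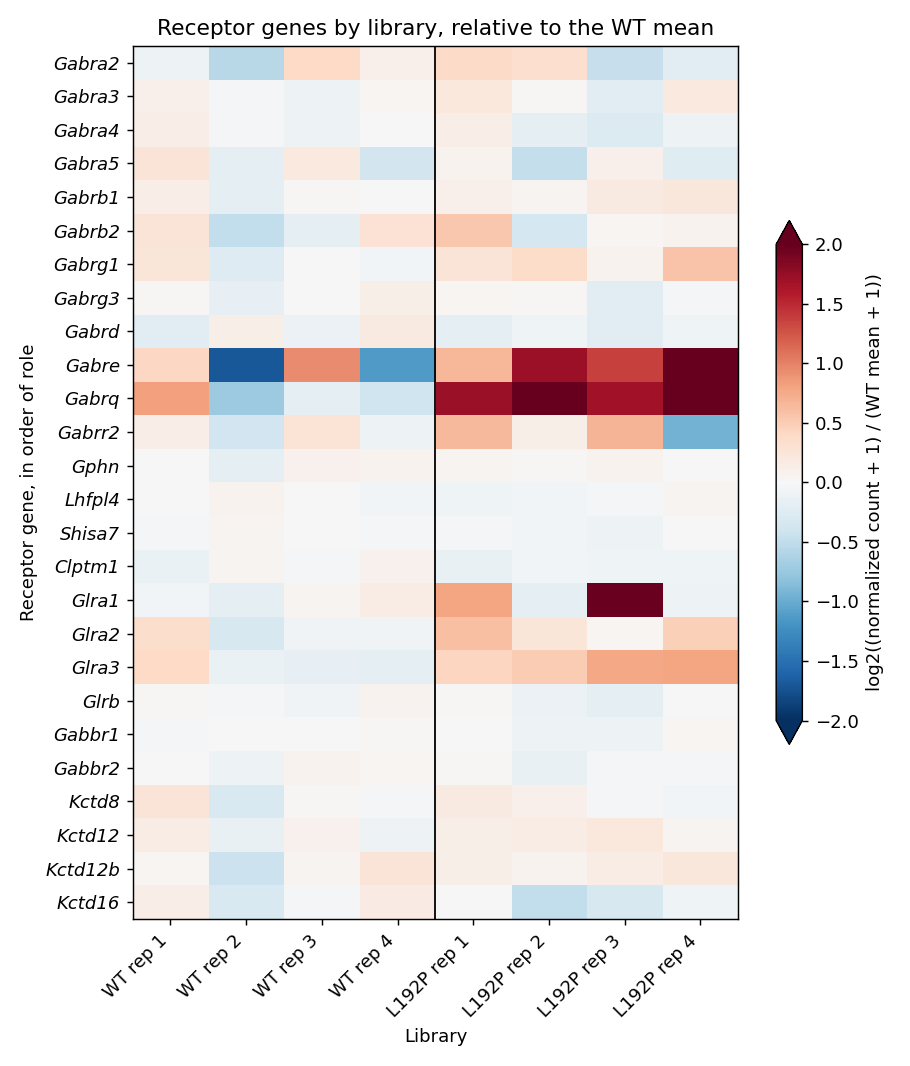
Heat map of the 26 receptor genes with an adjusted p (rows, in order of role) in the 8 libraries (columns), coloured by the log2 ratio of the normalized count plus 1 to the WT mean plus 1, with the colours ending at -2 and 2. The rows of Gabrq, Gabre and Glra3 are red in the 4 L192P columns, and most other rows stay pale in all 8 libraries.

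The 4 anchoring and assembly genes varied little, with coefficients of variation from 3.37% for Shisa7 to 5.88% for Clptm1 over the 8 libraries. Lhfpl4, which links GABA-A receptors to the adhesion protein neuroligin at inhibitory synapses, had 4247, 4352, 4401 and 4699 normalized counts in L192P replicates 1 to 4 and 4480.2, 4717, 4499 and 4312 in the WT replicates. The groups overlapped, and the log2 fold change of Lhfpl4 was -0.03 ± 0.06. Gphn, the gephyrin scaffold beneath inhibitory synapses, had a log2 fold change of 0.04 ± 0.07. Shisa7, an auxiliary subunit of GABA-A receptors, had a value of -0.04 ± 0.06. Clptm1, which holds GABA-A receptors back from the cell surface, had -0.09 ± 0.06. The DESeq2 adjusted p-values of these 4 genes ran from 0.735 for Clptm1 to 0.968 for Lhfpl4.

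The GABA-B receptor genes were the most abundant of the list and did not pass the test. Gabbr1, the GABA-binding subunit, had 19869, 18662, 18739 and 20620 normalized counts in L192P replicates 1 to 4 and 19515, 20119, 20126 and 20499.7 in the WT replicates. The groups overlapped, and the log2 fold change was -0.04 ± 0.05 (DESeq2 adjusted p = 0.915). Gabbr2, the subunit that couples to G proteins, had 6927 ± 371 in L192P and 7146 ± 394 in WT (SD, n = 4), with a log2 fold change of -0.04 ± 0.06.

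The KCTD proteins bind Gabbr2 and shape how fast the receptor response begins and fades. Kctd12, the most abundant of them, had 2875, 2949.7, 3081 and 2756 normalized counts in L192P replicates 1 to 4 and 2943, 2388, 2831 and 2483 in the WT replicates. The L192P libraries lay in the upper part of the WT range or just above it, with a log2 fold change of 0.13 ± 0.08 (DESeq2 adjusted p = 0.651). Kctd8, Kctd12b and Kctd16 had log2 fold changes of 0.05 ± 0.13, 0.16 ± 0.19 and -0.20 ± 0.14, and -0.20 was the lowest value among the 26 genes.

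Levels were compared between genes only per length, as normalized counts per kb of annotated exon averaged over the 8 libraries. Gabbr1 led with 2109 and was followed by Gabbr2 with 851 and Glrb with 577. Lhfpl4, Gabra3, Kctd12 and Clptm1 came next, from 495 to 440.2, and neighbours among these 4 genes overlapped in their WT libraries. Shisa7, Gabra4 and Gabrd lay at 315, 307 and 279.7. In this order Gabra3 was the most abundant alpha subunit, ahead of Gabra4, Gabra2 with 219.6 and Gabra5 with 148.

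Lower in the order, Gabrb2 with 172, Gphn with 154 and Gabrb1 with 153 did not differ beyond the range of the WT libraries. The glycine receptor alpha subunits were spread out, with 102 per kb for Glra2, 32.2 for Glra3, 5.46 for Glra1 and 1.52 for Glra4. Gabrq stood at 22.5 ± 2.57 per kb in L192P and 6.09 ± 3.28 in WT (SD, n = 4), so that its rank relative to Kctd12b, at 18.9 ± 0.895 and 17.2 ± 3.22, differed between the genotypes. Gabre stood at 7.89 ± 3.66 and 2.42 ± 1.99. The genes with the largest folds were thus far below the abundant subunits in level.

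**Figure D4:**
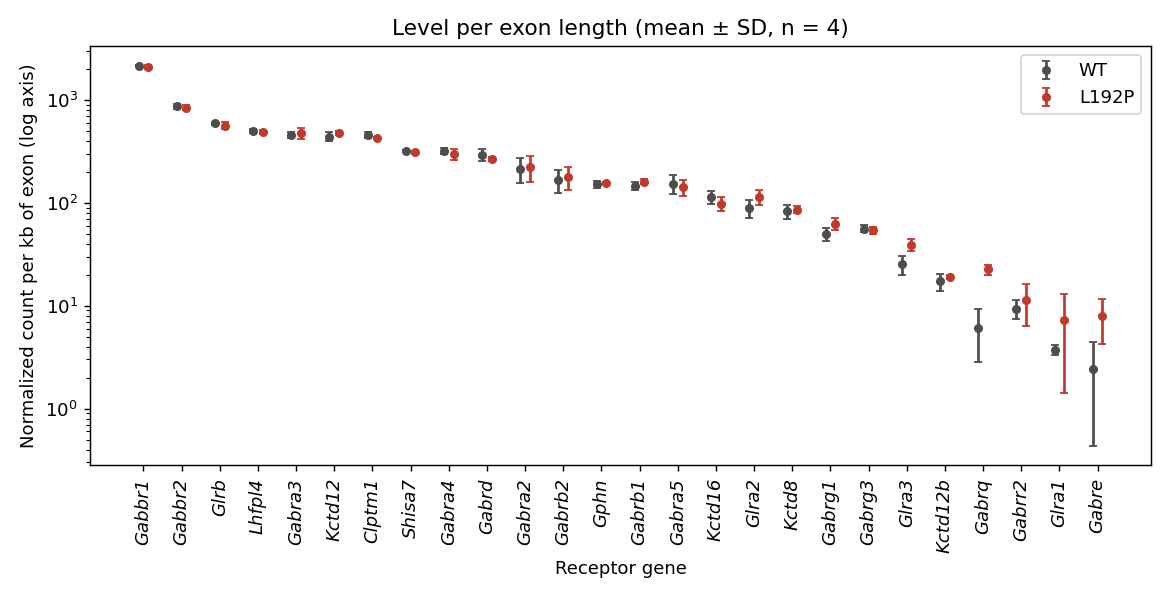
Normalized count per kb of exon (vertical axis, logarithmic) of the 26 receptor genes with an adjusted p, in descending order of the mean over all libraries, as mean ± SD of the 4 WT (grey) and the 4 L192P (red) libraries. The bars of the genotypes overlap for every gene drawn except Glra3, at 39.2 and 25.2 per kb, and Gabrq, at 22.5 and 6.09.

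Other genes of GABA and glycine signalling were taken from a list of 54, of which 53 received an adjusted p. DESeq2 called 3 of them, all higher in L192P, against 1.36% of all tested genes. Of the 54 genes, 11 had an unadjusted p under 0.05, against 1869 of the 32664 genes tested with independent filtering off. Their median log2 fold change was 0.005. Of 9 genes of GABA synthesis, breakdown and transport, 2 were called, Gad2 and Slc6a13. Of the 17 genes of inhibitory synapse scaffolds and receptor trafficking, Hap1 was called. None was called among the 7 genes of glycine metabolism and transport, the 8 chloride transporters, channels and their regulators or the 13 effectors and partners of the GABA-B receptor. This holds for edgeR and for DESeq2 with genotype only, while Gnb5 of the last list was called with the replicate block. In these lists 0, 1 and 4 genes had an unadjusted p under 0.05.

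Hap1, whose product moves vesicles and has been tied to the return of GABA-A receptors to synapses, had 5988, 5600, 5596 and 5519.7 normalized counts in L192P replicates 1 to 4. In the WT replicates it had 4228, 3079, 2926 and 2613. The groups did not overlap, and WT replicate 1 was again the WT library nearest to L192P. Hap1 had a log2 fold change of 0.82 ± 0.12 (DESeq2 adjusted p = 5e-09), and it was called in all 17 alternatives.

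Gad2, a GABA-synthesizing enzyme of axon terminals, had 7107, 7233, 6849 and 7729.8 normalized counts in L192P replicates 1 to 4. The WT replicates of Gad2 had 6717, 4722, 5841 and 5519.7. The groups did not overlap, and the log2 fold change was 0.34 ± 0.09 (DESeq2 adjusted p = 0.0235). It was called in 10 of 17 alternatives, and edgeR gave an adjusted p of 0.155. With DESeq2 the call of Gad2 was lost without L192P replicate 2 or 4 (0.093 and 0.134) or WT replicate 2, 3 or 4 (0.0949, 0.0768 and 0.146). Gad1, the other GABA-synthesizing enzyme, had 12229 ± 870.2 in L192P and 11735 ± 359 in WT (SD, n = 4), a log2 fold change of 0.06 ± 0.06.

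Slc6a13, a GABA transporter found mainly in the coverings and vessels of the brain, had 157, 312, 319 and 219 normalized counts in L192P replicates 1 to 4. The WT replicates of Slc6a13 had 137, 187, 109.7 and 138. The groups overlapped through L192P replicate 1 and WT replicate 2, and the log2 fold change was 0.81 ± 0.22 (DESeq2 adjusted p = 0.0229). The call held in 11 of 17 alternatives, and edgeR gave an adjusted p of 0.187. With DESeq2 the call of Slc6a13 was lost without L192P replicate 2 or 3 (0.184 and 0.177) or WT replicate 3 or 4 (0.143 and 0.112). The summed level of the 8 listed vascular markers was between 1413 and 3094 normalized counts in L192P and between 1558 and 2778 in WT, with none of the 8 called without the replicate block and Slco1a4 called with it (adjusted p 0.0279).

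Among pathway genes with a mean of at least 10 normalized counts, Kcnj5 had the highest log2 fold change and Igsf9b the lowest, and neither passed. Kcnj5, a subunit of the potassium channels that GABA-B receptors open, had 36.8 ± 9.71 in L192P and 19.9 ± 7.80 in WT (SD, n = 4), a log2 fold change of 0.90 (DESeq2 adjusted p = 0.252). Igsf9b, an adhesion protein of inhibitory synapses, had 1064 ± 168 and 1292 ± 129, a log2 fold change of -0.28 (DESeq2 adjusted p = 0.286). With the replicate number as a block, DESeq2 called Igsf9b lower (adjusted p 0.0322), and likewise Gnb5 (0.00757), a G protein subunit that partners the regulators of GABA-B signalling. Without independent filtering the block fit no longer called Igsf9b or Gad2 (0.11 for Gad2), while Gnb5 was still called.

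Some markers of other brain regions also differed between the genotypes. Of the 10 hypothalamus genes 8 had an adjusted p, and 3 of them, Oxt, Avp and Otp, were called higher. None of the 10 was at 0 in every library. The sum of the list was 931, 323, 1379 and 876 normalized counts in L192P replicates 1 to 4 and 304, 210.1, 184 and 316 in the WT replicates. The groups did not overlap in this sum, and L192P replicate 2 was close to WT replicates 1 and 4. The sum hides differences between its members, since Pomc made up 174 of the 316 counts in WT replicate 4 and was at 28.4 in L192P replicate 2. Nkx2-1, Trh and Otp, at 92.2, 138 and 12.5 in L192P replicate 2, were above every WT library, the highest of which had 63.0, 135 and 11.8. The same held for Oxt, but not for the other members. Avp and Sim1, at 19.3 and 1.14 in L192P replicate 2, were below WT replicate 1, which had 21.9 and 13.7. Hcrt, Pmch, Agrp and Pomc were also lower in L192P replicate 2 than in WT replicate 1.

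In that L192P replicate 2 the hypothalamus sum was 323 and Gabrq was at 133, Gabre at 39.8 and Glra3 at 338 normalized counts. In WT replicate 4, with a sum of 316, they were at 24.6, 4.68 and 209.6, but Nkx2-1, Trh and Otp were at 56.2, 56.2 and 1.17 there. Oxt was at 19.3 in L192P replicate 2 and at 2.73 to 7.6 in WT, against 143 to 155 in the other L192P libraries. Hap1 and Gad2, at 5600 and 7233 in L192P replicate 2, were also within the range of the other L192P libraries. The part of hypothalamic RNA in the differences of Gabrq, Glra3, Hap1 and Gad2 was not tested beyond these values.

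**Figure D5:**
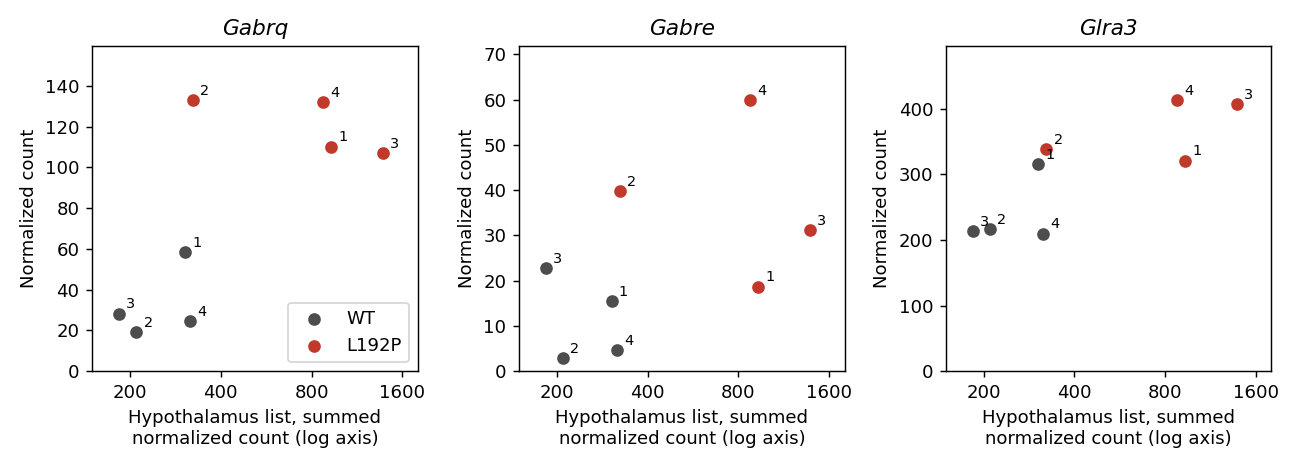
Normalized counts of Gabrq, Gabre and Glra3 (vertical axes, from 0) against the summed normalized count of the 10 hypothalamus genes (horizontal axis, logarithmic) in the 4 WT (grey) and 4 L192P (red) libraries, with replicate numbers. L192P replicate 2 lies at a sum of 323, beside WT replicates 1 and 4 at 304 and 316, although Pomc makes up 174 of the latter. The Gabrq value of L192P replicate 2 is 133, as high as in the other L192P libraries. Oxt, Nkx2-1, Trh and Otp were above every WT library in L192P replicate 2. Avp, Sim1, Hcrt, Pmch, Agrp and Pomc were below WT replicate 1. The part of hypothalamic RNA in these values was not tested.

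Of the 17 interneuron genes, Sncg, Calb2 and Ndnf were called higher, and the sums overlapped, at 20612 to 23757 and 21828 to 23763. Others had lower values in L192P, with log2 fold changes of -0.37 for Npy (DESeq2 adjusted p 0.0519, groups not overlapping), -0.30 for Lamp5 (0.123) and -0.22 for Pvalb (0.121), and the block fit called these 3 genes lower (1.53e-05, 4.66e-07 and 0.00907) and Adarb2 higher (0.0494). Eomes was called higher among the olfactory bulb genes, whose sums were 379.7 to 841 and 262 to 395. The thalamus genes had sums of 2561 to 5802 and 2259 to 2749, and none of the 6 was called without the block. No gene was called in the lists for cortical excitatory neurons, astrocytes, oligodendrocytes, microglia, vessels, erythroid cells, hippocampus, cerebellum and choroid plexus by DESeq2 without the block. With the replicate block DESeq2 called Neurod6 (adjusted p 0.000661), Tbr1 (0.0147) and Slc17a7 (0.0431) of the cortical excitatory list lower. It called Cx3cr1 of microglia (0.0416), Slco1a4 of vessels (0.0279), Slc17a6 and Ntng1 of the thalamus (0.0299 and 0.00453) and Trh of the hypothalamus (0.0022) higher. Oxt, Otp and Eomes received no adjusted p in that fit. Eomes was called in 8 of 15 alternatives, and edgeR gave it an adjusted p of 0.162. An unadjusted p under 0.05 was seen for 3 thalamus genes, 4 cortical excitatory genes, 2 microglia genes, 2 cerebellum genes and 0 genes of the other lists without a call. The part of these lists in the receptor results was not tested.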

How the data were processed

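Polyadenylated RNA of 8 cortex samples was sequenced by the authors, aligned to GRCm39 with STAR and counted per gene with featureCounts 1.5.1, per the labels and the study's methods. The STAR version is 2.7.9a per the labels and another in the methods. Strand setting and annotation release are not given in the sources used here. The authors deposited raw counts per library, without pooling, which are the unit of all tests here. The second deposited table holds a normalized signal, the counts divided by DESeq2 size factors per library. Multiplying it by these factors gave whole reads for 100% of the values within a tolerance of 1e-06, and the test on them called 253 genes, as many as on the counts.

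DESeq2 1.42.0 (R 4.3.3) was fitted with genotype only on all 8 libraries, with default size factors, Cook filter and independent filtering, and a gene was called at an adjusted p under 0.05, with no fold limit. Fold changes are not shrunken. Low counts give coarse fold changes. The receptor genes, pathway genes and marker lists were chosen with earlier results of these data known. By rule, values per library are given for members called with or without the replicate block, for members whose groups do not overlap and for the most abundant member per length of each role, and for pathway genes that were called or differed most. The library values of Gabre, Gabra2 and Glra1 and the values of Gnb5 and Gad1 were added after being seen. Exon lengths and positions come from GENCODE M39. Promoters are RefSeq's on GRCm38.p6. One of the marker lists is not reported here.

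The replicate numbers of the labels were checked for pairing. Deviations from the group means over 13422 genes correlated at 0.63, 0.38, 0.23 and 0.33 between same-numbered libraries and at -0.38 to 0.14 between others, so the numbers were treated as pairing the libraries, and the fit with the block is given where it changed the call of a receptor, pathway or reported marker gene. No 2 libraries of a genotype agreed within sampling noise (chi-square per degree of freedom 5.52 to 22.6). Permutation tests used scipy 1.17.1. The alternatives were edgeR 4.0.16 (quasi-likelihood), limma 3.58.1 (voom), TMM and total-count scaling, a filter of 10 counts in 4 libraries, both DESeq2 filters off, the block, and leaving out each library or both replicate 1 libraries. After seeing the data, the test on recovered reads and the block without independent filtering were added. The programs were tested on simulated data.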

Additional observations from a re-analysis of the deposited data

Results flagged for a closer look

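For each receptor gene with an adjusted p, the most distant of the 4 libraries of a genotype was looked for, measured by how much of the whole range lay between it and the next one. Among 52 such sets of 4 libraries, 1 passed the critical value, and about 2.6 would do so by chance. This was Glra3 in WT replicate 1, at 315 normalized counts against 209.6 to 216 in the other WT libraries, with 0.941 of the range in the gap. Without this library the log2 fold change of Glra3 was 0.79 and the DESeq2 adjusted p 1.11e-06. WT replicate 1 is also one of the libraries with almost no Xist RNA.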

How the results depend on the processing

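Of the 30 receptor genes 2 were called (Gabrq and Glra3). The call was made for 1, Gabrq, by edgeR and by limma-voom. Leaving out 1 library gave 1 to 5 calls, the most without WT replicate 1 (Gabre, Gabrg1, Gabrq, Glra2 and Glra3). Of the pathway genes, 3 were called by DESeq2, 1 by edgeR and by limma-voom (Hap1), 5 with the replicate block, 6 without both replicate 1 libraries, and 1 to 5 when 1 library was left out. Of all genes, 253 were called by DESeq2 (147 higher, 106 lower), 53 by edgeR (44 and 9), 45 by limma-voom (38 and 7), 533 with the replicate block (228 and 305), 500 without both replicate 1 libraries (238 and 262), and 112 (without WT replicate 4) to 496 (without WT replicate 1) when 1 library was left out. With total-count scaling 168 genes were higher and 64 lower, and this scaling moved the median of all genes to 0.026 on the log2 scale. No scaling reversed a receptor gene with an adjusted p. The replicate block changed the call of Glra2 (gained) and left Gabrq without an adjusted p.

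Only receptor genes with small differences changed direction. Gabra2 went from 0.06 to -0.11 without both replicate 1 libraries. Leaving out 1 library gave log2 fold changes of -0.09 to 0.22 for Gabra2, -0.07 to 0.23 for Gabrb2, -0.09 to 0.02 for Gabrg3, -0.02 to 0.07 for Gphn and -0.04 to 0.16 for Kctd8. The cause was not tested. Means under 10 normalized counts limit what can be said of Gabra6, Gabrp, Gabrr1 and Glra4.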
